A study of Mus musculus with 17 samples.

Results

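The C1q-like proteins and the cerebellins are small secreted proteins of the C1q superfamily that organize synapses. The genes C1ql1, C1ql2, C1ql3, Cbln1, Cbln2, Cbln3 and Cbln4 encode these ligands, and Adgrb3 (also called BAI3) encodes the adhesion G protein-coupled receptor of the C1q-like ligands. They were taken by name, as the rows of the deposited count table whose Ensembl identifiers carry these symbols. All 8 were found, out of 55471 genes in the table, and each matched 1 row.

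Total RNA of the hippocampus was sequenced from C57BL/6 mice aged 3 to 6 months in 17 libraries, with 2 genotypes and 3 treatments. CBP-ifKO mice lose the lysine acetyltransferase CBP, the product of Crebbp, once tamoxifen activates a creERT2 recombinase driven by Camk2a. Controls are littermates that the design text describes as lacking creERT2, although the description field of the labels names the Camk2a_creERT2 line for control samples too. All mice of both genotypes received tamoxifen, in 5 intragastric administrations. Mice of the Sal groups got saline and no kindling. Mice of the PTZ0 and PTZ45 groups went through the kindling protocol of repeated doses of the convulsant pentylenetetrazol (PTZ). Their final injection was saline for PTZ0 or PTZ at 45 mg/kg for PTZ45. The study reports that all controls came to have seizures under this protocol, and that no CBP-ifKO reached the stage of progressive seizures. The hippocampus was dissected 45 min later. Each group had 3 libraries, except Control PTZ45 with 2. The driver acts in excitatory neurons of the forebrain, so interneurons, glia and other cells of a CBP-ifKO hippocampus keep CBP, and the counts cover all of these cells together. The design asks whether transcription at rest and after PTZ depends on CBP, and the comparisons below ask this of the synaptic organizer genes.

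C1q-like proteins are released by neurons into the synaptic cleft. C1QL2 and C1QL3 are made by granule cells of the dentate gyrus, accumulate at mossy fiber synapses and help to recruit kainate receptors there, and C1QL1 is best known from climbing fiber synapses of the cerebellum. Cerebellins bridge presynaptic neurexins to postsynaptic delta glutamate receptors, and CBLN4 also binds DCC and neogenin. In the cerebellum CBLN1 is made by granule cells, where CBLN3 needs CBLN1 to be secreted.

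The libraries held 5831992 to 18735643 counts. Crebbp was at 1824 to 2429 normalized counts (counts divided by the size factor of the library) in the 8 control libraries and at 1061 to 1337 in the 9 CBP-ifKO libraries, which puts CBP-ifKOs at 55.9% ± 4.38 (SD, n = 9) of the control mean. Fos, an immediate early gene, was at 2483 and 2915 normalized counts in Control PTZ45, at 163.0 to 287.7 in CBP-ifKO PTZ45 and at 13.4 to 62.4 in the remaining libraries. Libraries differed in choroid plexus, the secretory epithelium of the ventricles: the summed counts of 5 of its markers were 10745 to 44033 in 5 libraries (Control Sal replicate 2, Control PTZ0 replicate 2, CBP-ifKO Sal replicate 1, CBP-ifKO PTZ0 replicate 3 and CBP-ifKO PTZ45 replicate 2) and 434.8 to 1136 in the other 12. Sequencing lanes followed the groups. Lane 3 held Control Sal and Control PTZ0, lane 4 held Control PTZ45 and CBP-ifKO Sal, and lane 5 held CBP-ifKO PTZ0 and PTZ45, so genotype and lane cannot be told apart within any treatment. The study's methods describe the saline samples of this experiment as individual mice, while the labels do not say this for any group, so the p-values measure the spread between these samples.

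Levels of different genes were compared as normalized counts per kb of exon. In controls the order from high to low was C1ql3, Adgrb3, C1ql2, Cbln2, C1ql1, Cbln4, Cbln1 and Cbln3. C1ql3 had 312.7 ± 19.8 per kb (SD, n = 8), Adgrb3 225.6 ± 10.7 and C1ql2 147.0 ± 20.7, and the ranges of these 3 genes did not overlap. Cbln2, at 60.5 ± 9.16 per kb (SD, n = 8), was the most abundant cerebellin in controls. C1ql1, at 28.5 ± 3.36, and Cbln4, at 27.6 ± 4.53 (SD, n = 8 each), did not differ beyond their spread, with ranges of 25.2 to 33.4 and 21.5 to 34.1. Cbln1, at 15.4 ± 4.72 per kb (SD, n = 8), reached 22.8 in its highest library and so overlapped Cbln4 but not C1ql1. Cbln3 was close to the limit of detection, with 2 to 16 raw counts per library and 1.38 ± 0.560 per kb (SD, n = 8) in controls.

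In CBP-ifKOs the order changed at C1ql2. Its level of 46.8 ± 9.94 per kb (SD, n = 9), with a range of 37.3 to 68.5, overlapped that of Cbln2, at 54.4 ± 6.75 per kb (SD, n = 9) with a range of 40.1 to 61.5. C1ql3 and Adgrb3 remained the most abundant of the 8 genes, at 292.3 ± 20.6 and 215.7 ± 11.8 per kb (SD, n = 9 each). Cbln4, at 21.2 ± 3.88 per kb, and C1ql1, at 20.2 ± 3.81 per kb (SD, n = 9 each), again overlapped. Cbln1 was at 7.37 ± 2.33 per kb and Cbln3 at 1.62 ± 0.783 (SD, n = 9 each).

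**Figure D1:**
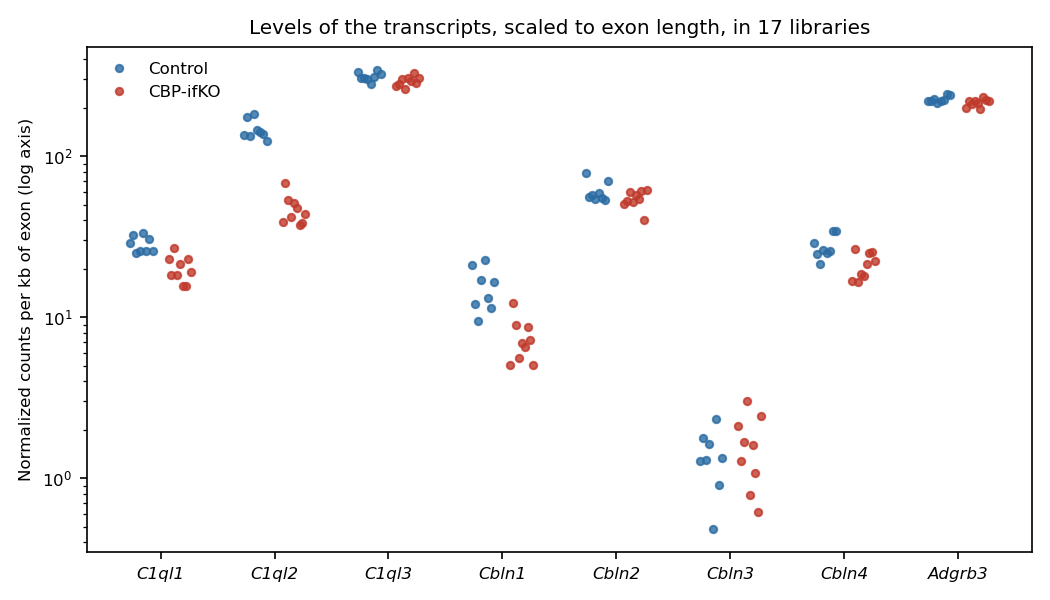
Level of each gene as normalized counts per kb of exon (log axis) in the 8 control libraries (blue) and the 9 CBP-ifKO libraries (red), 1 point per library. C1ql2 lies at 124.9 to 183.5 per kb in controls and at 37.3 to 68.5 in CBP-ifKOs, while the 2 clouds of the other 7 genes overlap.

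The sequence before the start of 3 of these genes is printed because CBP is a coactivator of CREB, which binds the cyclic AMP response element (CRE), and because C1ql2 and Cbln4 were lower in CBP-ifKOs while Adgrb3 was not called. RefSeq promoters were given for 5 of the 8 genes. Those of C1ql3 and Cbln3 overlap an annotated gene and are not shown. Each line gives the 250 bases before the start on the strand of the gene, in build GRCm38.p6, with capitals for the core of the CRE.
C1ql2: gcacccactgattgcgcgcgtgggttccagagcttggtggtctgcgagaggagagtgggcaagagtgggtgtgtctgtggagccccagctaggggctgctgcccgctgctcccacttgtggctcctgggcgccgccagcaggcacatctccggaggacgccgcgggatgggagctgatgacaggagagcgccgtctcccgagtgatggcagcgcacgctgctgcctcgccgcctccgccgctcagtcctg
Cbln4: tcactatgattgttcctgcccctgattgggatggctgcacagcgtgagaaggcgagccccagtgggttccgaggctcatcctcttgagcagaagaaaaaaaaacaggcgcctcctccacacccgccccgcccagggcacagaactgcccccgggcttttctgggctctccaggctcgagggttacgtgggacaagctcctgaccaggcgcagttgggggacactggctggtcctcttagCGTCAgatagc
Adgrb3: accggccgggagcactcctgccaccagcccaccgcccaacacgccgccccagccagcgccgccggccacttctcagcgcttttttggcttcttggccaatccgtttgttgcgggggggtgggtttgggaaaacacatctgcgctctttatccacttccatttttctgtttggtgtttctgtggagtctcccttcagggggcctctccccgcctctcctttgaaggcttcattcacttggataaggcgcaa

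The C1ql2 window is chr1:120340332-120340581 on the plus strand, the Cbln4 window chr2:172043467-172043716 on the minus strand and the Adgrb3 window chr1:25829708-25829957 on the minus strand. Both strands were searched for the CRE (TGACGTCA), for the CRE core (TGACG, which is part of the CRE) and for a TATA box (TATAAA). No CRE and no TATA match was found in the 5 windows, and a CRE core was found in 1 of them. It lies in Cbln4 on the reverse strand, with the first printed base at position -11 from the start. Among 32851 RefSeq promoter windows of the same length, 1.55% held a CRE, 17.8% a CRE core and 12.4% a TATA match. The GC content was 68.8% for C1ql2, 60.8% for Cbln4 and 59.2% for Adgrb3, against a median of 52.4% over all windows. These matches describe letters in a window and do not show binding.

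Of the 8 genes, 4 were at lower levels in CBP-ifKOs. In the DESeq2 fit of genotype over all treatments (9 against 8 libraries, treatment as a term), C1ql2, Cbln1, C1ql1 and Cbln4 were called lower, at a Benjamini-Hochberg adjusted p under 0.05, and the count with edgeR was 4 as well. C1ql3, Cbln2 and Adgrb3 were not called, and Cbln3 was too low to receive an adjusted p. Of all 18682 genes with an adjusted p, 11.5% were called lower and 7.76% higher, and 0 of the 8 genes were called higher. The median log2 fold change was -0.44 over the 7 genes with an adjusted p and 0.0098 over all genes tested. In bulk tissue, fewer cells of a type and less RNA per cell cannot be told apart, and this applies to every difference below. In a fit with lane as a term, which left 135 genes called in all instead of 3606, only C1ql2 of the 8 genes was called. That fit has as many terms as there are groups. Its genotype term contrasts the groups of lane 4, which differ in treatment too, and takes each PTZ effect as equal in both genotypes. A call kept or lost there is therefore not a test of lane alone.

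C1ql2 (ENSMUSG00000036907, chromosome 1, 120340582 to 120343174 in GRCm38, a protein-coding gene on the plus strand) showed the largest difference of the 8 genes. Its normalized counts were 268.8, 348.4 and 267.6 in Control Sal, 366.9, 292.8 and 282.8 in Control PTZ0, and 275.0 and 249.9 in Control PTZ45. In CBP-ifKOs they were 77.5, 137.0 and 106.4 in Sal, 84.0, 103.1 and 95.4 in PTZ0, and 74.7, 77.0 and 87.2 in PTZ45. Every CBP-ifKO library lay below every control library, which held for 1 of the 8 genes and for 2.16% of all genes tested. Relative to the control mean, CBP-ifKOs kept 31.8% ± 6.76 (SD, n = 9) of C1ql2.

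Over all treatments C1ql2 had a log2 fold change of -1.66 (SE 0.10; DESeq2 adjusted p 2.02e-59). It was -1.52 in Sal (SE 0.19, adjusted p 1.89e-11), -1.73 in PTZ0 (SE 0.16, adjusted p 8.25e-23) and -1.72 in PTZ45 (SE 0.21, adjusted p 1.04e-13), each by DESeq2. The difference was thus present in mice never given PTZ and in mice given repeated PTZ. Mice given repeated PTZ also differed by genotype in seizure progression. The gene was called in all 25 alternatives over all treatments, with log2 fold changes from -1.72 to -1.51. With lane as a term the value was -1.51 (adjusted p 5.71e-04 by DESeq2). Within lane 4, which holds groups that differ in genotype and in treatment, the 2 Control PTZ45 libraries were at 275.0 and 249.9 normalized counts and the 3 CBP-ifKO Sal libraries at 77.5, 137.0 and 106.4.

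Markers of dentate granule cells, the main known source of C1ql2 in the hippocampus, moved in both directions with genotype. Of 6 such markers 3 were called lower and 2 higher by DESeq2, with a median log2 fold change of -0.11. Their summed level was 4109 to 5549 normalized counts in controls and 4226 to 5594 in CBP-ifKOs, and no marker was near 0. Of 4 markers of hilar mossy cells, 1 was called lower, namely Calb2, which encodes calretinin (log2 fold change -0.68, SE 0.10, adjusted p 5.73e-10 by DESeq2), and the summed level, most of it Calb2, was 283.6 to 400.6 in controls and 166.3 to 283.8 in CBP-ifKOs. The other 3 mossy cell markers were not called, with mean levels in controls and CBP-ifKOs of 12.7 and 13.6 for Drd2, 13.3 and 16.8 for Csf2rb2 and 22.7 and 18.1 for Nmb. Of 6 markers of CA1 pyramidal cells 5 were called lower, with sums of 5563 to 6293 in controls and 3938 to 4932 in CBP-ifKOs. The part of mossy and CA1 cell markers in the C1ql2 difference was not tested.

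**Figure D2:**
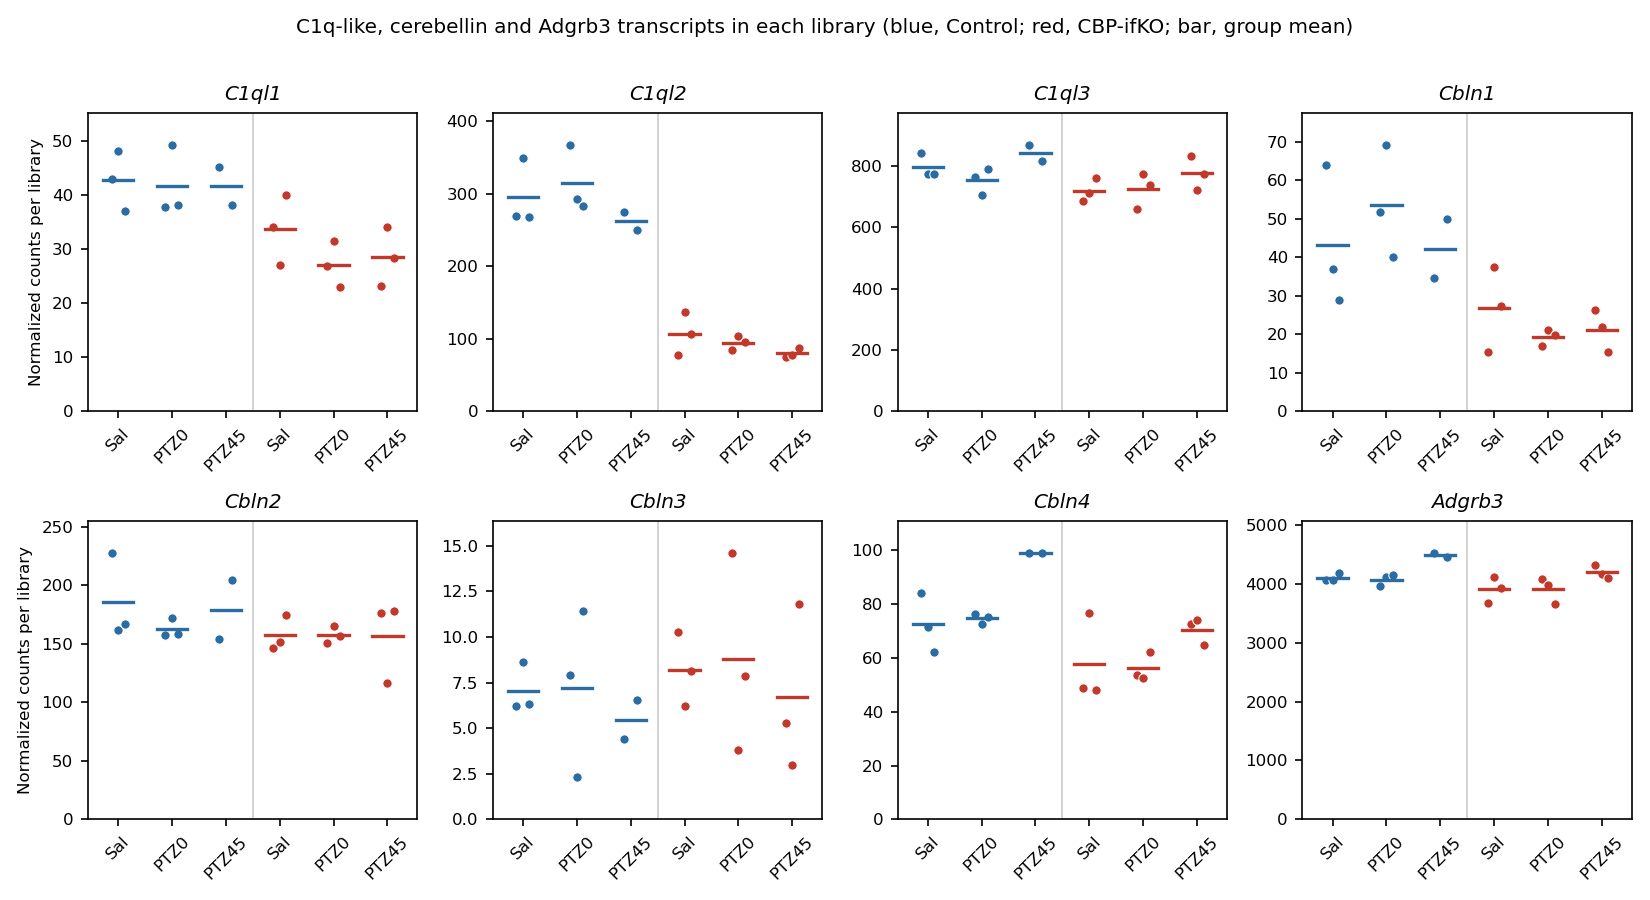
Normalized counts of the 8 genes in each library, by group, with controls in blue, CBP-ifKOs in red and the group mean as a bar (n = 3 libraries per group, 2 in Control PTZ45; every axis starts at 0). C1ql2 separates the genotypes in every treatment, while Cbln4 and Adgrb3 have their 2 highest libraries in Control PTZ45.

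C1ql3 (ENSMUSG00000049630, chromosome 2, 13003457 to 13011806), which acts with C1ql2 at mossy fibers, was at 707.5 to 869.3 normalized counts in controls and at 661.1 to 833.8 in CBP-ifKOs, with medians of 782.5 and 739.6. Most libraries of the 2 genotypes covered the same range. The log2 fold change was -0.11 (SE 0.05, 95% confidence interval -0.20 to -0.02, adjusted p 0.0947 by DESeq2), so C1ql3 did not pass the test, and the interval does not reach the value of C1ql2. Without CBP-ifKO PTZ0 replicate 2 the gene was called (adjusted p 0.0406 by DESeq2). C1ql3 overlaps 2 genes on the opposite strand, and the sources used here do not say whether counting used the strand, so its counts may include reads of these genes.

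The balance between the C1q-like ligands differed between genotypes. Within a library, the level of C1ql2 divided by that of C1ql3, both per kb, was 0.387 to 0.607 in controls (median 0.446) and 0.113 to 0.244 in CBP-ifKOs (median 0.161). This ratio does not depend on the scaling between libraries. C1ql2 made up 26.4% to 35.9% of the summed C1ql1, C1ql2 and C1ql3 level per kb in the control libraries (median 29.2%) and 9.77% to 18.6% in those of CBP-ifKOs (median 13.1%), without overlap.

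C1ql1 (ENSMUSG00000045532, chromosome 11, 102939264 to 102946688) was the least abundant of the 3 C1q-like genes described here, with 13 to 55 raw counts per library. Its normalized counts were 42.9, 48 and 37.1 in Control Sal, 37.75, 49.2 and 38.1 in PTZ0, and 45.1 and 38.0 in PTZ45. CBP-ifKO libraries had 34.0, 27 and 39.9 in Sal, 26.8, 31.5 and 22.9 in PTZ0, and 23.1, 34.0 and 28.3 in PTZ45. Only CBP-ifKO Sal replicate 3 reached into the control range. CBP-ifKOs kept 70.7% ± 13.3 (SD, n = 9) of the control mean of C1ql1, and its log2 fold change was -0.47 (SE 0.15, DESeq2 adjusted p 0.0157). The call was lost with lane as a term (log2 fold change -0.22, adjusted p 0.999 by DESeq2), with a correction for GC content (-0.28, adjusted p 0.203) and without the 5 libraries of high choroid plexus markers (-0.41, adjusted p 0.190).

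Among the cerebellins, Cbln1 (ENSMUSG00000031654, chromosome 8, 87468405 to 87472609) showed the largest difference. Its normalized counts were 63.9, 36.9 and 28.9 in Control Sal, 51.8, 69.1 and 40.0 in PTZ0, and 34.5 and 50.0 in PTZ45. CBP-ifKO libraries had 15.4, 37.4 and 27.3 in Sal, 17, 21 and 19.7 in PTZ0, and 26.3, 22 and 15.3 in PTZ45. The genotypes overlapped in Sal and did not overlap in PTZ0 or PTZ45. CBP-ifKOs kept 47.7% ± 15.1 (SD, n = 9) of the control mean of Cbln1, for a log2 fold change of -1.09 (SE 0.21, DESeq2 adjusted p 4.84e-06).

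Some limits apply to Cbln1. With lane as a term its log2 fold change was -0.32 (adjusted p 0.999 by DESeq2), and in the 24 other alternatives it was called. Its 13 to 82 raw counts per library can include reads of Gm2694, a gene on the opposite strand. Markers of tissue next to the hippocampus were compared too, because Cbln1 is also expressed there. Of 6 markers of thalamus and habenula 1 was called lower, and their summed level was 998.4 to 1271 normalized counts in controls and 847.4 to 1155 in CBP-ifKOs. Among 3 markers of cerebellar granule cells, Gabra6 and Barhl1 were near 0 in both genotypes, with means of 1.27 and 2.68 normalized counts in controls, while Fat2 was called lower (log2 fold change -1.20, SE 0.24, adjusted p 1.40e-05 by DESeq2). The part of these markers in the Cbln1 difference was not tested.

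Cbln4 (ENSMUSG00000067578, chromosome 2, 172036233 to 172043466), a cerebellin that binds DCC and neogenin as well as neurexins, was lower by a smaller margin. Its normalized counts were 84.2, 71.4 and 62.4 in Control Sal, 76.4, 72.6 and 75.2 in PTZ0, and 99.0 and 98.9 in PTZ45. CBP-ifKO libraries had 48.7, 76.8 and 48 in Sal, 53.6, 52.5 and 62.3 in PTZ0, and 72.5, 74.0 and 64.8 in PTZ45. The groups did not overlap in PTZ0 or PTZ45, and CBP-ifKO Sal replicate 2, the library with the fewest counts, lay within the control range in Sal.

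CBP-ifKOs kept 76.8% ± 14.1 (SD, n = 9) of the control mean of Cbln4, for a log2 fold change of -0.44 (SE 0.11, DESeq2 adjusted p 8.59e-04). With lane as a term the call was lost (log2 fold change -0.50, adjusted p 0.999 by DESeq2). In the 24 other alternatives Cbln4 was called. Some interneurons are a known source of Cbln4. Of 7 interneuron markers 2 were called lower, namely Gad1 (log2 fold change -0.14, SE 0.03, adjusted p 1.11e-05 by DESeq2) and Sst (-0.28, SE 0.06, adjusted p 1.57e-04), and the summed level was 6578 to 6930 normalized counts in controls and 5898 to 6608 in CBP-ifKOs. Their part in the Cbln4 difference was not tested.

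Cbln2 (ENSMUSG00000024647, chromosome 18, 86711110 to 86718283), the most abundant cerebellin of these libraries, was at 153.9 to 227.5 normalized counts in controls and at 116.0 to 178.0 in CBP-ifKOs, with medians of 164.3 and 156.9. The libraries of the genotypes overlapped in every treatment. Its log2 fold change was -0.15 (SE 0.10, 95% confidence interval -0.35 to 0.04, adjusted p 0.296 by DESeq2), and it was called in none of the 25 alternatives, where the value ranged from -0.39 with lane as a term to -0.09 without the libraries of high choroid plexus markers, and was also -0.09 without Control Sal replicate 1. Cbln2 made up 53.9% to 65.1% of the summed Cbln1, Cbln2 and Cbln4 level per kb in the control libraries (median 58.3%) and 55.0% to 70.2% in those of CBP-ifKOs (median 68.4%), with overlap.

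Cbln3 (ENSMUSG00000040380, chromosome 14, 55878913 to 55884392) was at 2.34 to 11.4 normalized counts in controls and 3.00 to 14.6 in CBP-ifKOs. Its log2 fold change was 0.26 (SE 0.36, 95% confidence interval -0.45 to 0.97), so neither a rise nor a fall of Cbln3 was detectable at this depth.

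The receptor gene Adgrb3 (ENSMUSG00000033569, chromosome 1, 25067476 to 25829707) was measured with 1980 to 5737 raw counts per library. Its normalized counts were 4070, 4067 and 4176 in Control Sal, 3955, 4110 and 4143 in PTZ0, and 4523 and 4454 in PTZ45. CBP-ifKO libraries had 3675, 4109 and 3935 in Sal, 4088, 3977 and 3659 in PTZ0, and 4319, 4163 and 4095 in PTZ45. The genotypes overlapped in Sal and PTZ0, and in PTZ45 the 3 CBP-ifKO libraries lay below both controls. CBP-ifKOs were at 95.6% ± 5.23 (SD, n = 9) of controls. The log2 fold change was -0.08 (SE 0.03, 95% confidence interval -0.14 to -0.02, adjusted p 0.0526 by DESeq2), just outside the threshold. It was called with TMM scaling (adjusted p 0.0477) and, by DESeq2, when 1 library was left out, which could be Control PTZ0 replicate 1, replicate 2 of CBP-ifKO Sal, replicate 1 or 2 of CBP-ifKO PTZ0 or replicate 1 of CBP-ifKO PTZ45, with adjusted p-values from 0.0220 to 0.0482. By edgeR the adjusted p was 0.123. Adgrb3 overlaps 23 annotated genes, most of them on the same strand, so its counts may be split with these.

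Within single treatments C1ql2 was the gene called in each. In Sal 1 of the 8 genes was called lower by DESeq2, against 1.77% of all genes tested, and 2 genes, C1ql2 and C1ql3, had all CBP-ifKO libraries below all controls, against 11.1% of all genes. In PTZ0 1 gene was called lower against 5.25% of all genes, and 4 genes (C1ql1, C1ql2, Cbln1 and Cbln4) did not overlap against 15.2%. In PTZ45 1 gene was called lower against 2.82%, and 5 genes (those 4 and Adgrb3) did not overlap against 18.3%.

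C1ql1, Cbln1 and Cbln4 had negative log2 fold changes in each treatment but did not pass the test there. Cbln1 had log2 fold changes of -0.79 in Sal (SE 0.40, adjusted p 0.477 by DESeq2), -1.46 in PTZ0 (SE 0.35, unadjusted p 3.23e-05 by DESeq2, too low in counts for an adjusted p) and -0.98 in PTZ45 (SE 0.46, adjusted p 0.359). In PTZ0 Cbln1 was called by edgeR (adjusted p 0.00570), with a minimum count filter replacing independent filtering (0.00159 by DESeq2), with the GC correction (0.00281) and without CBP-ifKO PTZ0 replicate 3 (0.0246). The Sal value of Cbln1 was -1.04 when CBP-ifKO Sal replicate 2 was left out and -0.37 when Control Sal replicate 1 was left out. Cbln4 had -0.40 (SE 0.27), -0.41 (SE 0.24) and -0.49 (SE 0.27) in Sal, PTZ0 and PTZ45, and its Sal value was -0.26 to -0.59 when single libraries were left out (Control Sal replicate 1 and CBP-ifKO Sal replicate 2). C1ql1 had -0.30 (SE 0.33), -0.62 (SE 0.34) and -0.54 (SE 0.42), with values of -0.45 to -0.15, -0.75 to -0.37 and -0.69 to -0.25 over the alternatives.

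**Figure D3:**
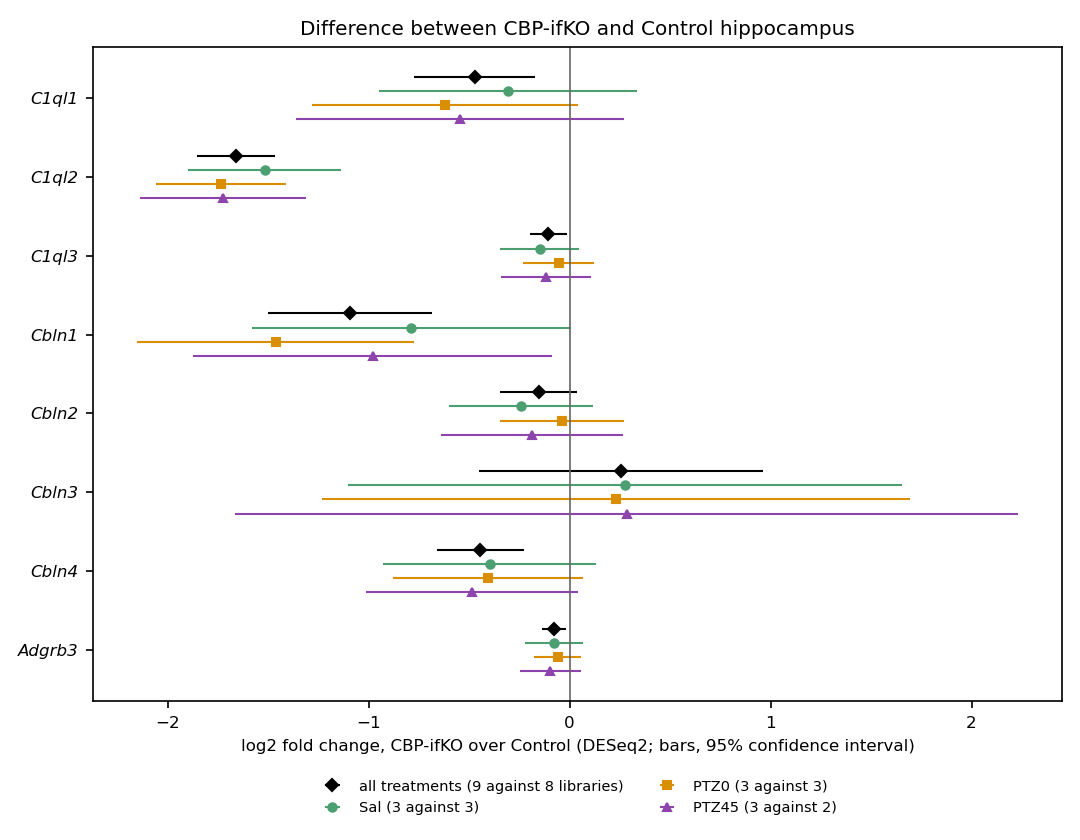
Log2 fold change of each gene, CBP-ifKO over Control, with its 95% confidence interval from DESeq2, over all treatments (black) and within Sal, PTZ0 and PTZ45. C1ql2 lies between -1.73 and -1.52 in the 3 treatments, and the wide intervals of Cbln3 go with its 2 to 16 counts per library.

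The response to PTZ was compared next. None of the 8 genes was called by DESeq2 or by edgeR in any of the 6 comparisons between treatments. For PTZ45 against Sal this is 0 of 8 in controls, against 1.17% of all genes tested, and 0 of 8 in CBP-ifKOs, against 0.294%. For PTZ0 against Sal it is 0 of 8 in controls, against 0.00843%, and 0 of 8 in CBP-ifKOs, against 0.0112%. For PTZ45 against PTZ0 it is 0 of 8 in controls, against 1.25%, and 0 of 8 in CBP-ifKOs, against 0.0872%. An unadjusted p under 0.05 by DESeq2 was found for 1 gene, Adgrb3 in controls for PTZ45 against PTZ0, and for 0 genes in the other 5 comparisons. By edgeR it was found in controls for 4 genes against PTZ0 (C1ql2, C1ql3, Cbln4 and Adgrb3, unadjusted p 0.0441, 0.0460, 0.0184 and 0.0294) and for 1 gene against Sal (Cbln4, 0.0222), and for 0 genes in the other 4 comparisons. PTZ45 is compared with Sal and with PTZ0 by the same PTZ45 libraries, so the comparisons are not independent.

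Cbln4 and Adgrb3 had positive log2 fold changes for PTZ45 in both genotypes, none of which passed the test. Their 2 Control PTZ45 libraries were the highest of the 17. Cbln4 was at 99.0 and 98.9 normalized counts there, against 62.4 to 84.2 in Control Sal and 72.6 to 76.4 in Control PTZ0. Its log2 fold change against Sal was 0.44 in controls (SE 0.26, adjusted p 0.767 by DESeq2) and 0.34 in CBP-ifKOs (SE 0.27, adjusted p 1.0). Against PTZ0 it was 0.40 in controls (SE 0.25, adjusted p 0.744 by DESeq2) and 0.32 in CBP-ifKOs (SE 0.26, adjusted p 1.0), the latter within lane 5. Adgrb3 had 0.13 (SE 0.08, adjusted p 0.776 by DESeq2) and 0.10 (SE 0.08, adjusted p 1.0) against Sal in controls and CBP-ifKOs, and 0.14 (SE 0.06, adjusted p 0.453) and 0.10 (SE 0.07, adjusted p 1.0) against PTZ0. With the GC correction the 4 values of Adgrb3 were 0.03 to 0.05, and in CBP-ifKOs they were 0.06 against Sal without CBP-ifKO Sal replicate 1 and 0.06 against PTZ0 without CBP-ifKO PTZ0 replicate 3. The Cbln4 value against Sal in CBP-ifKOs was 0.23 without replicate 1 or 3 of CBP-ifKO Sal, 0.54 without replicate 2, and 0.18 without the libraries of high choroid plexus markers.

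The genes with all PTZ45 libraries above all others were counted beside the background. For PTZ45 against Sal they were 2 of the 8 genes in controls (Cbln4 and Adgrb3), against 16.7% of all genes, and 0 in CBP-ifKOs, against 6.69%. For PTZ45 against PTZ0 they were 3 in controls (C1ql3, Cbln4 and Adgrb3), against 17.6%, and 2 in CBP-ifKOs (Cbln4 and Adgrb3), against 4.67%. In the opposite direction, with all PTZ45 libraries below all others, there were 0 for PTZ45 against Sal in controls (15.6% of all genes) and 0 in CBP-ifKOs (6.16%), and for PTZ45 against PTZ0 there were 1 in controls (15.8%) and 0 in CBP-ifKOs (5.6%). The 1 gene was C1ql2, at 275.0 and 249.9 normalized counts in Control PTZ45 against 282.8 to 366.9 in Control PTZ0, and it did not pass the test (log2 fold change -0.26, SE 0.16, adjusted p 0.731 by DESeq2). In controls both PTZ45 libraries came from lane 4 and the Sal and PTZ0 libraries from lane 3, so the last injection and the lane cannot be told apart there.

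The genotype difference of the 8 genes was not shown to depend on PTZ. In the genotype by PTZ45 interaction over 11 libraries, 0 of the 8 genes were called by DESeq2 and 0 by edgeR, against 0.329% of all genes tested, and 0 had an unadjusted p under 0.05. The interaction of C1ql2 was -0.21 on the log2 scale (SE 0.28, 95% confidence interval -0.75 to 0.33, adjusted p 1.0 by DESeq2), and the values of the 8 genes ranged from -0.25 to 0.05. Leaving out 1 library moved the C1ql2 value from -0.41 (without CBP-ifKO Sal replicate 1) to -0.04 (without CBP-ifKO Sal replicate 2), and it was -0.52 without the libraries of high choroid plexus markers. The intervals are wide enough for moderate differences in either direction.

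**Figure D4:**
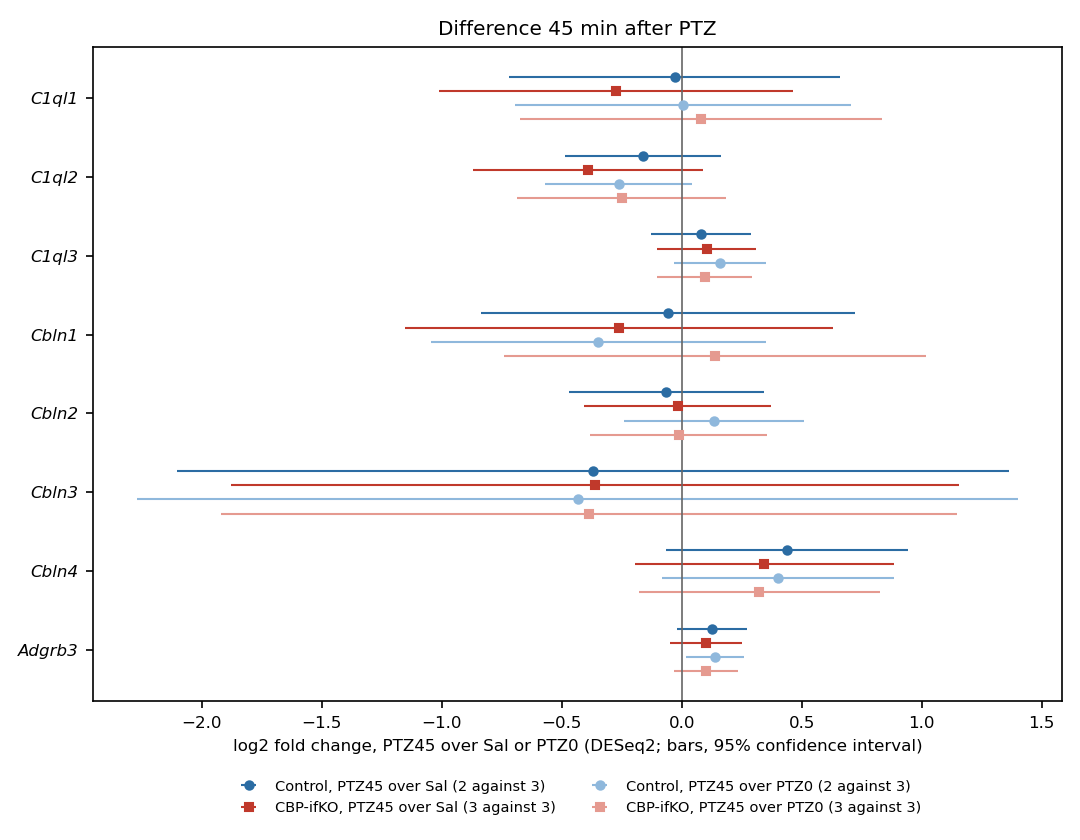
Log2 fold change of each gene 45 min after PTZ, against Sal (dark) and against PTZ0 (light), in controls (blue) and CBP-ifKOs (red), with 95% confidence intervals from DESeq2. Cbln4, at 0.32 to 0.44, and Adgrb3, at 0.10 to 0.14, lie above 0 in all 4 comparisons, as does C1ql3 at 0.08 to 0.16. C1ql2, at -0.39 to -0.16, and Cbln3, near the limit of detection, at -0.43 to -0.36, lie below 0 in all 4. Every interval includes 0 except that of Adgrb3 in controls against PTZ0.

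The partners of these ligands and receptors were examined as a list of 9 genes: the neurexins Nrxn2 and Nrxn3, the delta receptor Grid1, the kainate receptor subunits Grik2 and Grik4, the netrin receptors Dcc and Neo1, and Adgrb1 and Adgrb2, the relatives of Adgrb3. Over all treatments 6 of 9 were called lower and 0 higher in CBP-ifKOs by DESeq2, against 11.5% and 7.76% of all genes tested, with a median log2 fold change of -0.16. All of these changes were small beside that of C1ql2. Grid1, a delta receptor of the forebrain, fell by 0.27 on the log2 scale (SE 0.04, adjusted p 1.91e-09 by DESeq2), without overlap between the genotypes. Grik2, a subunit of the kainate receptors that C1QL2 and C1QL3 help to recruit, fell by 0.16 (SE 0.03, adjusted p 1.63e-05). Nrxn2 fell by 0.28 (SE 0.08, adjusted p 0.00513), Grik4 by 0.18 (SE 0.06, adjusted p 0.0101), Adgrb2 by 0.18 (SE 0.06, adjusted p 0.0361) and Adgrb1 by 0.15 (SE 0.05, adjusted p 0.0262).

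None of the 6 partner calls held with lane as a term, where adjusted p-values by DESeq2 were 0.263 to 0.986 and log2 fold changes were -0.34 for Nrxn2, -0.30 for Grik2, -0.28 for Adgrb2, -0.26 for Grik4, -0.22 for Adgrb1 and -0.20 for Grid1. Grid1 and Grik2 were called in the 24 other alternatives. Without the 5 libraries of high choroid plexus markers the other 4 partner calls were lost, with log2 fold changes of -0.24 for Nrxn2, -0.20 for Grik4, -0.15 for Adgrb2 and -0.12 for Adgrb1. With the GC correction Nrxn2 (-0.17, adjusted p 0.0643 by DESeq2), Adgrb2 (-0.07, adjusted p 0.286) and Adgrb1 (-0.03, adjusted p 0.685) were not called. Adgrb1 and Adgrb2 also lost their calls when any 1 of these libraries was left out: Control Sal replicate 2 or 3, Control PTZ0 replicate 1, Control PTZ45 replicate 1, replicate 1 of CBP-ifKO Sal or replicate 3 of CBP-ifKO PTZ0 (adjusted p 0.0531 to 0.138 by DESeq2). Adgrb2 lost it as well without CBP-ifKO PTZ45 replicate 1 (0.0688) or 3 (0.0513) and with edgeR (0.0529). Grik4 lost it without Control PTZ45 replicate 1 (0.0549). Within treatments Grid1 was called lower in PTZ0 (log2 fold change -0.29, SE 0.08, adjusted p 0.00810 by DESeq2), a call that was lost without Control PTZ0 replicate 1 or 3 or CBP-ifKO PTZ0 replicate 3 (0.113 to 0.139) and without the libraries of high choroid plexus markers (-0.30, 0.383). In CBP-ifKOs Adgrb1, Adgrb2 and Nrxn2 were lower in PTZ45 than in Sal, by 0.38, 0.48 and 0.51 on the log2 scale (adjusted p 0.0167, 0.00157 and 0.0161 by DESeq2), and none of the 3 was called by edgeR or with the GC correction, where the log2 fold changes were -0.06, -0.19 and -0.23. All 3 calls were also lost without CBP-ifKO Sal replicate 2 (0.245 to 0.990 by DESeq2) or CBP-ifKO PTZ45 replicate 1 (0.0504 to 0.431), and those of Adgrb1 and Nrxn2 without CBP-ifKO PTZ45 replicate 2 or 3 (0.106 to 0.261) and without the libraries of high choroid plexus markers (-0.46 and -0.58, adjusted p 0.0635 and 0.131). In controls Adgrb1, Adgrb2 and Nrxn2 were at -0.26, -0.29 and -0.32 for PTZ45 against Sal (adjusted p 0.351, 0.219 and 0.442 by DESeq2). Their genotype by PTZ45 interactions were -0.12, -0.19 and -0.19 (unadjusted p 0.377, 0.211 and 0.326 by DESeq2).

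A pair of wider lists places the 8 genes among related ones in the comparison over all treatments. Of 44 other synaptic organizers, such as neuroligins, teneurins and LRRTMs, 23 were called lower and 3 higher, against 11.5% and 7.76% of all genes tested, with a median log2 fold change of -0.11. Nptx2, a neuronal pentraxin that clusters AMPA receptors, fell by 1.31 (SE 0.12, adjusted p 2.30e-24 by DESeq2) and was the 1 organizer of this list with a difference near that of C1ql2 and Cbln1. The next largest falls were in Flrt1 (0.41), Slitrk4 (0.31), Cadm1 (0.27) and Tenm2 (0.26), and the rises were in Lrrtm4 (0.17), Nptx1 (0.15, lost when any 1 of 6 libraries was left out, adjusted p 0.0524 to 0.0704 by DESeq2) and Tenm1 (0.13). With lane as a term Nptx2 stayed called (adjusted p 0.0412 by DESeq2) and the others did not. Their log2 fold changes in that fit were -0.54 for Flrt1, -0.44 for Slitrk4, -0.39 for Tenm2, -0.27 for Cadm1, 0.07 for Lrrtm4, 0.04 for Nptx1 and -0.0045 for Tenm1. Without the libraries of high choroid plexus markers Nptx1 (0.16, adjusted p 0.0942 by DESeq2) and Tenm1 (0.08, adjusted p 0.365) were not called. Of 13 other genes with a C1q domain, such as the complement genes C1qa, C1qb and C1qc, 0 were called lower and 1 higher, C1qtnf12 (log2 fold change 0.66, SE 0.15, adjusted p 2.53e-04 by DESeq2), which is named because it was the single call. C1ql4, the remaining C1q-like gene, had a mean of 0.266 normalized counts. Low counts left C1ql4, C1qtnf3 and C1qtnf9 without an adjusted p in some fits. For PTZ45 against Sal, C1qtnf4, another gene with a C1q domain, was called lower by DESeq2. Its log2 fold change was -0.83 in controls (adjusted p 0.0402 by DESeq2, 0.0879 by edgeR) and -1.43 in CBP-ifKOs (adjusted p 0.00112 by DESeq2, 0.215 by edgeR).

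**Figure D5:**
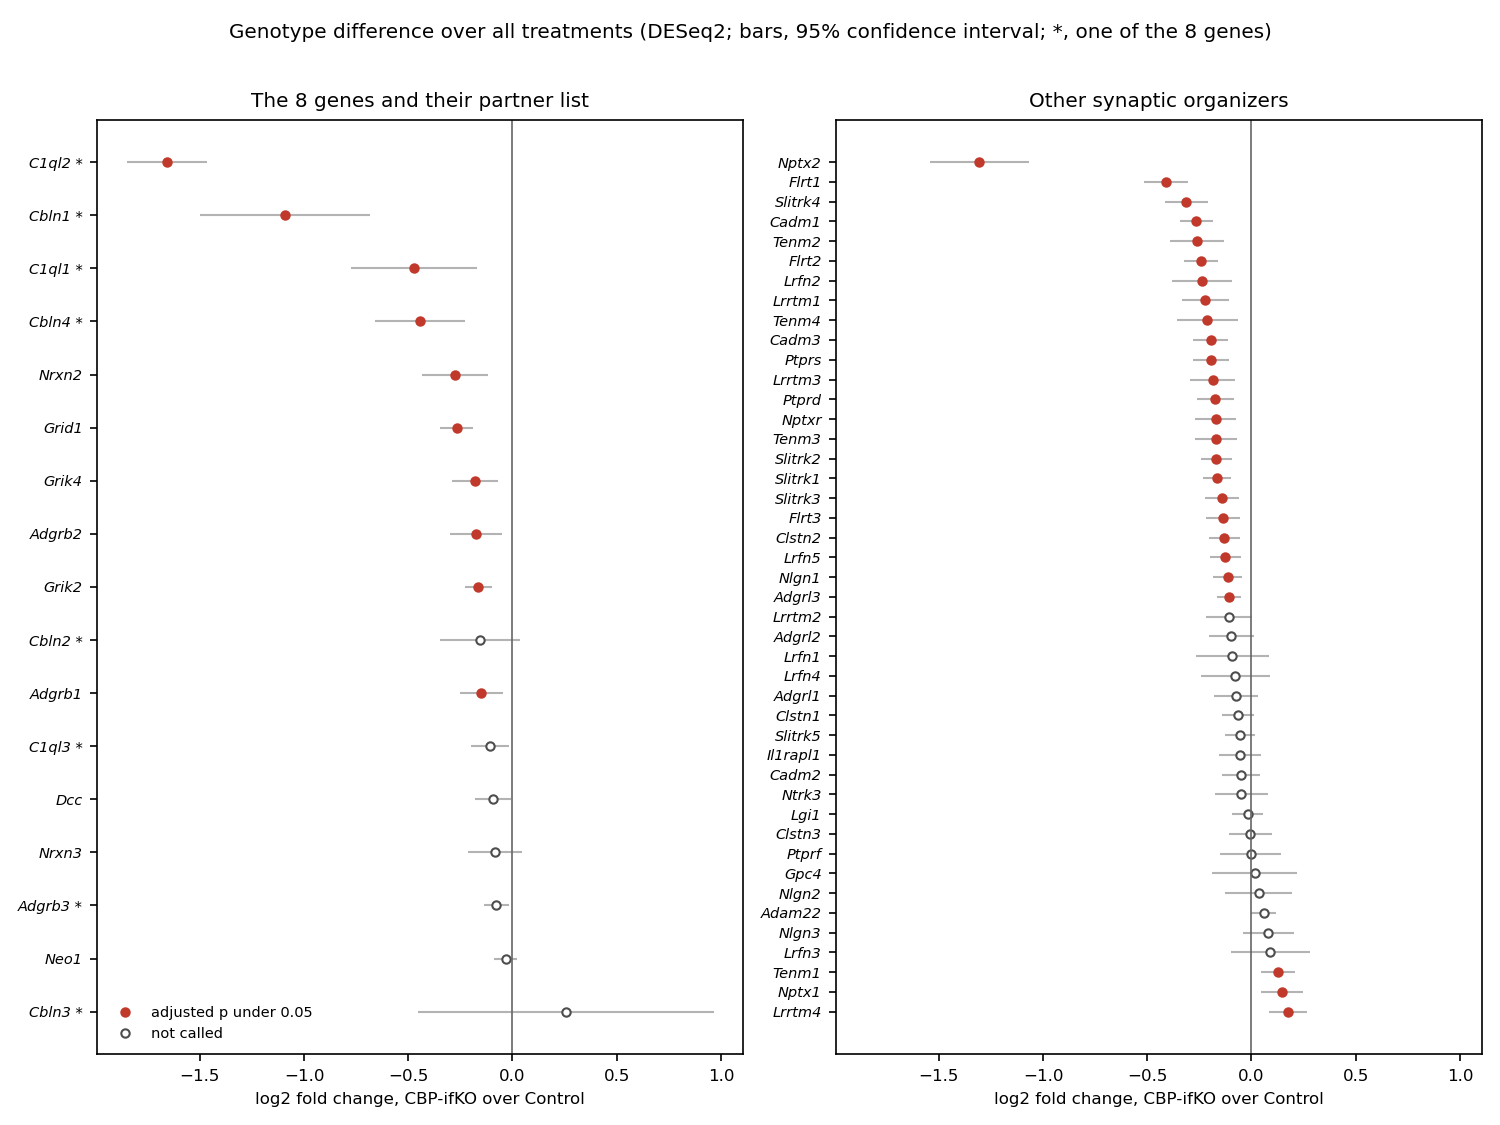
Log2 fold change over all treatments, CBP-ifKO over Control, with 95% confidence intervals from DESeq2, for the 8 genes (asterisks) with 9 partners (left) and for 44 other synaptic organizers (right); filled red points are called at an adjusted p under 0.05. C1ql2 (-1.66), Nptx2 (-1.31) and Cbln1 (-1.09) stand apart from the other genes.

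For the 5 genes whose mean reached 50 normalized counts, genes with a similar pattern over the 17 libraries were listed, by Pearson correlation of log2(normalized count + 1) over 13041 genes. The libraries share genotype, lane and depth, so the values describe these libraries and were not tested. C1ql2 was most like Camkk2 (0.980), Wfs1 (0.967) and Fxyd7 (0.965). Taken on deviations from the group means, which leave out differences between groups, these correlations were 0.660, 0.381 and 0.844. C1ql3 was most like Kpna1 (0.923), Cnbp (0.885) and Fstl5 (0.859), and Cbln2 was most like Arl4c (0.878), Mrpl12 (0.873) and Vamp3 (0.831). Cbln4 was most like Pcdh15 (0.901), Bmp3 (0.882) and Mlip (0.864), and the pattern of Adgrb3 was close to those of Peli1 (0.881) and Dclk1 (0.863).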

How the data were processed

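Hippocampal RNA was sequenced as single-end reads of 50 bp. According to the study's methods and the submitters' processing notes, the authors trimmed reads with Trim Galore 0.6.4, aligned them to mm10 (GRCm38) with STAR 2.6.1, kept reads of mapping quality above 10 and counted them on exons. They deposited raw counts per gene, which were used unnormalized. Whether counting used the strand is not given in the sources used here. Of 18 count columns 1, named like those of the Control PTZ45 libraries, matched no sample and was not used. Symbols and positions came from GENCODE M21, which held 99.6% of the identifiers.

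The test was the two-sided Wald test of DESeq2 1.42.0 in R 4.3.3 on genes with at least 1 count, with Benjamini-Hochberg adjustment and independent filtering. Pairs of groups were fitted alone, the interaction on the Sal and PTZ45 libraries, and genotype over all treatments on 17 libraries with treatment as a term. Alternatives were edgeR 4.0.16, TMM, a low-count filter, 1 fit of all libraries, the replicate number as a block, a GC correction, lane as a term and leaving out each library. Leaving out the libraries of high choroid plexus markers was chosen after seeing the data. Libraries of a group differed by more than counting noise. Scripts were tested on simulated data.

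All 8 genes were named, as were called partners and at most 5 called organizers per direction. Some genes of these lists are not reported here. Genes and lists were chosen with earlier results of these data known.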

Additional observations from a re-analysis of the deposited data

Results flagged for a closer look

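Cbln2 had 116.0 normalized counts in CBP-ifKO PTZ45 replicate 2, below the other 8 CBP-ifKO libraries. The gap to the next library was 0.495 of the range of the 9 libraries, just above the limit of 0.493 used for groups of 9. This library is 1 of the 5 with high choroid plexus markers, and the part of these markers in the low value was not tested. Over the 16 tests of a gap made for the 8 genes in the 2 genotypes, chance flags about 1 in 20 groups.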

How the results depend on the processing

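With lane as a term, the number of the 8 genes called lower over all treatments fell from 4 to 1 (C1ql2), and Tenm1 changed sign (-0.0045). In the other alternatives the number was 3 to 6, and it was 4 to 6 when single libraries were left out. In PTZ0 the number was 1, but 2 with edgeR, with the low-count filter, with the GC correction and without CBP-ifKO PTZ0 replicate 3, and the added gene was Cbln1 each time. Leaving out single libraries there gave 1 to 2. In Sal and PTZ45 the number was 1, and in the PTZ comparisons and the interaction 0, under every alternative run.

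The replicate number did not pair the libraries. Deviations of same-numbered libraries correlated with a median r of -0.0605 across genes over 40 pairs, with 15 above 0.1. For differently numbered libraries the median r was 0.0305 over 80 pairs, with 33 above 0.1. For 1 Control PTZ45 library the replicate number differs from the number in its column name. With the replicate block the count of the 8 genes was 4 over all treatments and 1 within each treatment, and genes called over all treatments numbered 3223 instead of 3606. In Sal genes called fell from 306 to 122, in PTZ0 from 852 to 410 and in PTZ45 from 468 to 102. The call of Grid1 in PTZ0 was lost with the block (-0.29, adjusted p 0.0665 by DESeq2).

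Depth limits Cbln3 in every comparison, and limits C1ql1 and Cbln1 within treatments, where several fits gave them no adjusted p. The Control PTZ45 group has 2 libraries, which widens every interval that uses it.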
